A study of Mus musculus with 4 samples.

Results

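The 8 genes described here, Pou1f1, Zbtb20, Gata2, Foxl2, Nr5a1, Lhx3, Lhx4 and Insm1, encode transcription factors known from pituitary hormone lineages other than, or beside, the Pomc lineage, and were followed across hormone cell types of the mouse pituitary. They were taken by name from a feature list of 31053 genes, in which all 8 were found. The rule that names them sets no threshold on a measured value, but they were chosen with earlier results of these data known. Single cells came from pituitary glands of mice that overexpress p25, labelled p25OE, and of wild-type (WT) littermates, all of the strain labelled C57BL/6- B6;CBA-BiTg mice. The protein p25 arises when p35, which activates the kinase Cdk5, is cleaved. The labels name neither the promoter that drives p25 nor the number of glands in a library. The 4 groups, WT at 14 weeks, p25OE at 14 weeks, WT at 40 weeks and p25OE at 40 weeks, were 1 library each, and values are given in this order throughout. Since every group is a single library, the spread between animals is unknown and no p-value was computed.

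Hormone cells of the anterior pituitary arise from common progenitors under successive transcription factors. Lhx3 and Lhx4 are LIM-homeodomain factors required early for the gland to form. Pou1f1 (Pit-1) specifies somatotrophs, lactotrophs and thyrotrophs, which make growth hormone (Gh), prolactin (Prl) and thyrotropin (Tshb), and it activates these hormone genes. Zbtb20 is a zinc finger repressor needed for lactotroph differentiation. Gata2 acts in thyrotrophs and gonadotrophs, Foxl2 is a forkhead factor of the glycoprotein hormone (Cga) lineages, and Nr5a1 (SF-1) is the nuclear receptor that defines gonadotrophs, which make luteinising and follicle-stimulating hormone (Lhb, Fshb). Insm1 is a zinc finger factor of endocrine differentiation. Corticotrophs and melanotrophs make Pomc and are specified by Tbx19, with Pax7 in melanotrophs.

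Promoters are printed for 4 genes to show the sequence to which the lineage factors are known to bind, since these factors are read below beside the hormone genes they activate. Each run is the 250 bases before the annotated start, 5′ to 3′ along the gene, from RefSeq (GRCm38.p6), which held a promoter for 6 of the 8 factors. Capitals mark matches, on either strand, to ATGNATA, a short form of the Pou1f1 site, in the first pair, and to TGNCCTTG, a short form of the Nr5a1 site, in the second pair.

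Pou1f1 (chr16:65520262-65520511, plus strand): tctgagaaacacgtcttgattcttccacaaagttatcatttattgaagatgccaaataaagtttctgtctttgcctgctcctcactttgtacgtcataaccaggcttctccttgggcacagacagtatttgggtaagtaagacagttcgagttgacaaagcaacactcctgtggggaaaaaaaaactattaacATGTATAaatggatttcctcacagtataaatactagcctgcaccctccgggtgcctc
Prl (chr13:27057320-27057569, plus strand): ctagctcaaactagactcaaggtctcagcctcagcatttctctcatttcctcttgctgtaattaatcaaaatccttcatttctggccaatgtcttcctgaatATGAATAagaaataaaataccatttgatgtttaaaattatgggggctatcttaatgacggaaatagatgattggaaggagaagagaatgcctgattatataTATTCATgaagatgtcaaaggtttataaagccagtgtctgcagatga
Lhb (chr7:45420696-45420945, plus strand): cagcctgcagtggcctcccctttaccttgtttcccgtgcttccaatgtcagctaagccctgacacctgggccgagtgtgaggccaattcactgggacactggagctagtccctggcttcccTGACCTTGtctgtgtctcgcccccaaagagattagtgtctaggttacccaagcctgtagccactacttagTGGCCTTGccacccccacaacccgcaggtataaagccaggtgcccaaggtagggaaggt
Cga (chr4:34893529-34893778, plus strand): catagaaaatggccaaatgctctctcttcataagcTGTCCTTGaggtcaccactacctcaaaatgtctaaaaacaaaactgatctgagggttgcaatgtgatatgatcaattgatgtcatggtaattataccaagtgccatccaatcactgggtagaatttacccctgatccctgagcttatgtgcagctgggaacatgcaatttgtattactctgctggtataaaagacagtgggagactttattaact

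The Pou1f1 promoter held ATGNATA once, from 57 bases before the start, and the Prl promoter from 148 and from 47 bases before it. Of all 32851 promoters in the table, 7.92% held this motif within the same 250 bases. The Lhb promoter held TGNCCTTG from 129 and from 59 bases before the start and the Cga promoter from 215 bases before it, against 5.53% of all promoters. Among the 6 factors with a promoter in the table, the second motif was found in that of Zbtb20 alone. The promoters of Tshb, Fshb and Gnrhr, searched in the same way, held neither motif, and Gh had no promoter in the table. The printed promoters are thus ones with a match. A match is a description of the letters and says nothing of binding in these cells.

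In GENCODE M21 on GRCm38, the genes lie at chr16:65520511-65535005 (Pou1f1), chr16:42875881-43642602 (Zbtb20), chr6:88193891-88207032 (Gata2), chr9:98955288-98958543 (Foxl2), chr2:38692656-38714542 (Nr5a1), chr2:26200212-26208289 (Lhx3), chr1:155698031-155751684 (Lhx4) and chr2:146221921-146225020 (Insm1). Among genes of the feature list, Lhx3 overlaps the antisense gene Gm27196, Nr5a1 overlaps Nr5a1os, and Zbtb20 overlaps Gm9968 and Gm15713. Each of these partners lies on the strand opposite to its factor and is a feature of its own. Whether the counting used strand is not given in the sources used here, and the part of partner reads in these counts was not tested.

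RNA molecules were counted with unique molecular identifiers (UMIs). The libraries held 95242353, 77275454, 53714895 and 60662506 UMIs, and 6579, 7667, 7927 and 7726 cells with at least 500 detected genes and at most 20% mitochondrial UMIs were kept, with medians of 10778, 6340, 4940 and 6626 UMIs. Kept cells of the WT and p25OE libraries at 40 weeks shared 85 barcodes, those at 14 weeks 13, and libraries of different ages 0 to 2, so the ages used different barcode sets although the labels name 1 kit for all. Age and barcode set therefore cannot be told apart. Cells were assigned to 6 hormone classes by the share of their UMIs from hormone genes and a few markers, none of them a factor described here. The thresholds, however, were set after seeing the data, with levels of the factors in view. Defining genes outside the assignment were then read in WT at 14 weeks, as CPM, which are UMIs scaled to the total of the class. Ghrhr, the receptor of somatotrophs, was at 124.6 CPM in the somatotroph class and at most 9.67 CPM in the other hormone classes. Gnrhr, that of gonadotrophs, was at 660 CPM in the gonadotroph class against at most 6.63 CPM. Trhr, that of thyrotrophs, was at 83.2 CPM in the thyrotroph class against at most 0.905 CPM. Tbx19 was at 246 CPM in corticotrophs and 102 CPM in melanotrophs against at most 8.82 CPM.

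Free RNA from broken cells gives UMIs in cells that do not make a gene, so levels are given beside those of immune-gated cells (715, 813, 724 and 187 cells). Zbtb20 and Gata2 also have known roles in blood and immune cells, so for these 2 genes the immune-gated value is not a level of free RNA alone. In immune-gated cells Prl was at 17380, 19179, 63149 and 1636 CPM and Lhb at 6.95, 17.8, 320 and 2.72 CPM. Both were highest in WT at 40 weeks.

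**Figure D1:**
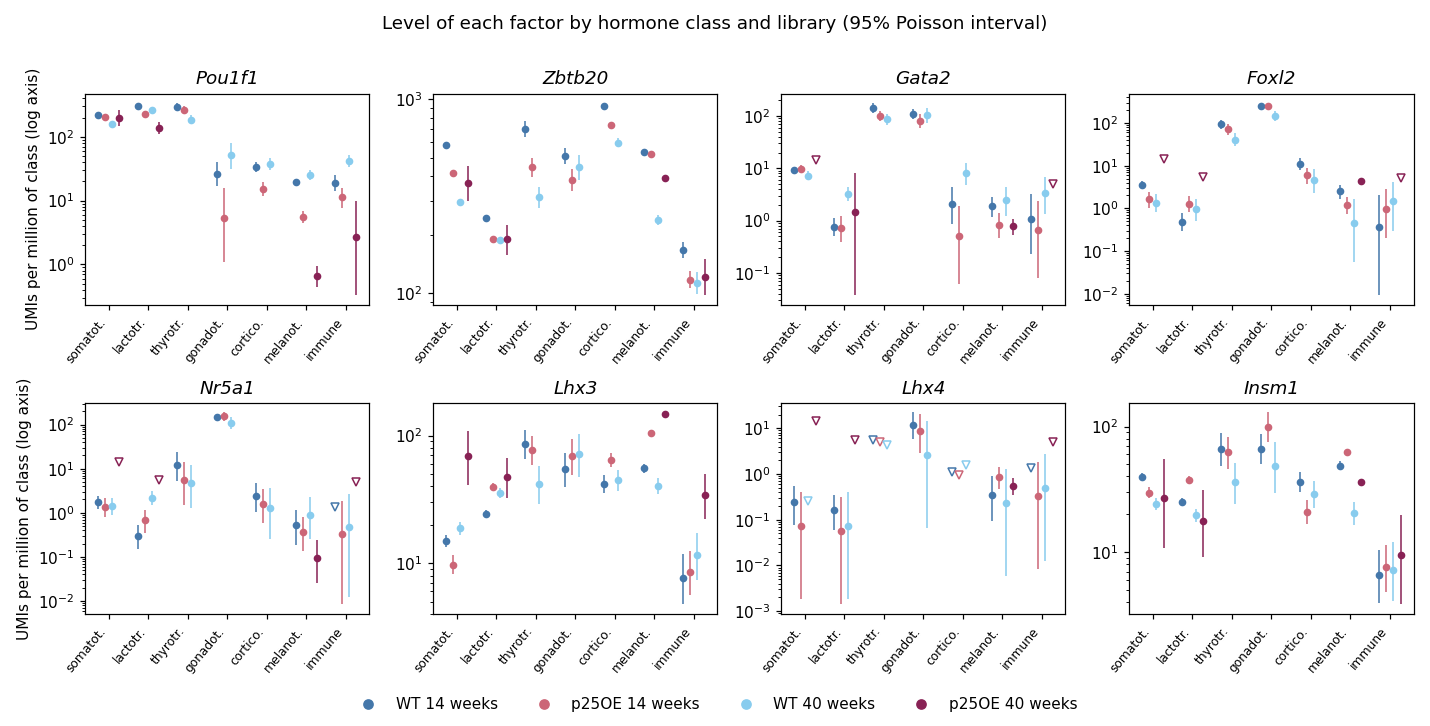
Level of each factor in CPM of the class (log axis) in 6 hormone classes and in immune-gated cells, coloured by library, with exact 95% Poisson intervals. Classes with at least 40 cells are drawn and open triangles mark the upper bound where no UMI was counted. Nr5a1 stands at 110 to 153 CPM in gonadotrophs and at most 12.1 CPM in the other classes of the first 3 libraries.

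The 3 classes that Pou1f1 is known to specify carried it at the highest levels in the WT and p25OE libraries at 14 weeks and in WT at 40 weeks. In lactotrophs Pou1f1 was at 307 CPM (302 to 313) in WT at 14 weeks, 231 (224 to 238) in p25OE at 14 weeks, 264 (255 to 272) in WT at 40 weeks and 138 (112 to 169) in p25OE at 40 weeks, where the class held 54 cells. In somatotrophs it was at 223, 206 and 158 CPM in the first 3 libraries. In thyrotrophs it was at 292 (252 to 336), 265 and 186 CPM, from 41, 73 and 84 cells. Lactotrophs and thyrotrophs did not differ beyond their counting intervals in WT at 14 weeks, and both lay above somatotrophs. In gonadotrophs, corticotrophs and melanotrophs of these libraries Pou1f1 was at 5.34 to 51.2 CPM, beside 19.0, 11.2 and 41.5 CPM in immune-gated cells. In WT at 14 weeks these 3 classes were at 19.3 to 33.8 CPM, none below the immune-gated level. In p25OE at 14 weeks, at 5.34 to 15.3 CPM, and in WT at 40 weeks, at 25.3 to 51.2 CPM, they lay on both sides of it.

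Thinned to 1000 UMIs, so that cells of unequal depth can be compared, 23.3% of WT lactotrophs at 14 weeks held a Pou1f1 UMI, against 1.72% of immune-gated cells. Unthinned, the lactotroph share was 87.1% at a median of 17784 UMIs, and immune-gated cells had a median of 3264 UMIs. In p25OE at 14 weeks the thinned shares were 19.6% and 0.878%.

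Zbtb20 was found in all 6 classes, from 245 CPM (240 to 250) in lactotrophs to 922 CPM (889 to 955) in corticotrophs of WT at 14 weeks. Corticotrophs were highest in these 3 libraries, at 922, 738 and 596 CPM, and lactotrophs lowest, at 245, 190 and 188 CPM. The highest and the lowest class were the same by the thinned share in these libraries, with 55.2% of corticotrophs and 19.5% of lactotrophs in WT at 14 weeks. The immune-gated level was 167, 117 and 113 CPM.

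The glycoprotein hormone lineages shared Gata2 and Foxl2 and differed in Nr5a1. Gata2 was at 144 CPM (116 to 176), 100 and 87.4 CPM in thyrotrophs and at 111 CPM (89.6 to 136), 80.1 and 102 CPM in gonadotrophs, whose intervals overlap in each of the 3 libraries. Foxl2 was at 92.2, 70.4 and 40.7 CPM in thyrotrophs and at 245, 246 and 148 CPM in gonadotrophs, with no overlap of their intervals. Nr5a1 was at 150 CPM (124.7 to 179), 153 (122 to 189) and 110 (79.7 to 148) in gonadotrophs and at 12.1 (5.22 to 23.8), 5.41 and 4.79 CPM in thyrotrophs. The next hormone class for Gata2 was the somatotroph class, at 9.11, 9.82 and 7.19 CPM, except in WT at 40 weeks, where corticotrophs were at 7.97 CPM (4.80 to 12.4). All 3 genes were at 3.38 CPM or less in immune-gated cells.

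At the level of single cells, 33 of 51 WT gonadotrophs at 14 weeks held UMIs of both Foxl2 and Nr5a1, as did 30 of 89 in p25OE at 14 weeks and 20 of 56 in WT at 40 weeks. Median depths were 17854, 4474 and 7070 UMIs, which differ in the same order as these shares. Thinned to 1000 UMIs, 14.0% (5.82 to 26.7), 23.3% (14.8 to 33.6) and 10.7% (4.03 to 21.9) held Foxl2. In thyrotrophs, 29 of 41, 26 of 73 and 36 of 84 cells held both Pou1f1 and Gata2, at medians of 13888, 8216 and 10729 UMIs, while Foxl2 and Nr5a1 met in 2, 2 and 1 cells.

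Lhx3 was found in every hormone class of WT at 14 weeks, from 15.0 CPM (13.4 to 16.7) in somatotrophs to 86.2 CPM (65.3 to 112) in thyrotrophs. Between them lay lactotrophs at 24.4 CPM, corticotrophs at 41.9, gonadotrophs at 54.4 and melanotrophs at 55.4 CPM, and immune-gated cells were at 7.68 CPM. The interval of gonadotrophs (39.7 to 72.8) holds the values of corticotrophs and melanotrophs, while the intervals of those 2 (35.2 to 49.5 and 51.2 to 59.8) do not overlap. Its relative Lhx4 was near the limit of detection. It reached 12.1 CPM (5.80 to 22.2) on 10 UMIs in WT gonadotrophs at 14 weeks, 8.90 CPM on 5 UMIs in p25OE at 14 weeks and 2.56 CPM on 1 UMI in WT at 40 weeks. In corticotrophs no Lhx4 UMI was counted in these 3 libraries, which allows up to 1.11, 0.956 and 1.55 CPM, so its presence there was not detectable at this depth. Insm1 ranged in WT at 14 weeks from 25.3 CPM (23.7 to 26.9) in lactotrophs to 66.5 CPM in both thyrotrophs (48.3 to 89.3) and gonadotrophs (50.1 to 86.5), with 6.58 CPM in immune-gated cells.

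The comparison of p25OE with WT at 14 weeks asked whether the lineage factors differed within each class. Ratios were scaled so that the median gene of a class, taken over the first 3 libraries together, is near 1. A factor is called higher or lower from 1.5-fold on where the exact 95% interval leaves out 1. This interval covers counting error only. Lhx3 was higher in p25OE in 3 of 5 classes and lower in somatotrophs, where the thinned share of cells showed no decrease. Pou1f1 was neither in the somatotroph and lactotroph classes that make it. Gata2, Foxl2 and Nr5a1 were neither in gonadotrophs. Over 32 pairs of factor and class with at least 20 UMIs, 5 were called higher and 9 lower, and thyrotrophs gave no ratio with 41 WT cells, under the minimum of 50.

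In somatotrophs 0 of 7 factors tested were higher and 2 lower, against 6.61% and 6.88% of all genes. Lactotrophs had 3 of 7 higher and 0 lower, against 9.77% and 4.47% of all genes. Gonadotrophs had 0 of 7 higher and 1 lower, against 7.28% and 4.56%. Corticotrophs had 1 of 5 higher and 3 lower, against 7.31% and 4.78%. Melanotrophs had 1 of 6 higher and 3 lower, against 14.7% and 8.22%. The median log2 ratio of the factors was -0.43, 0.59, -0.03, -0.81 and -0.71 in this order of classes, and that of all genes tested lay between 0.00 and 0.07.

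**Figure D2:**
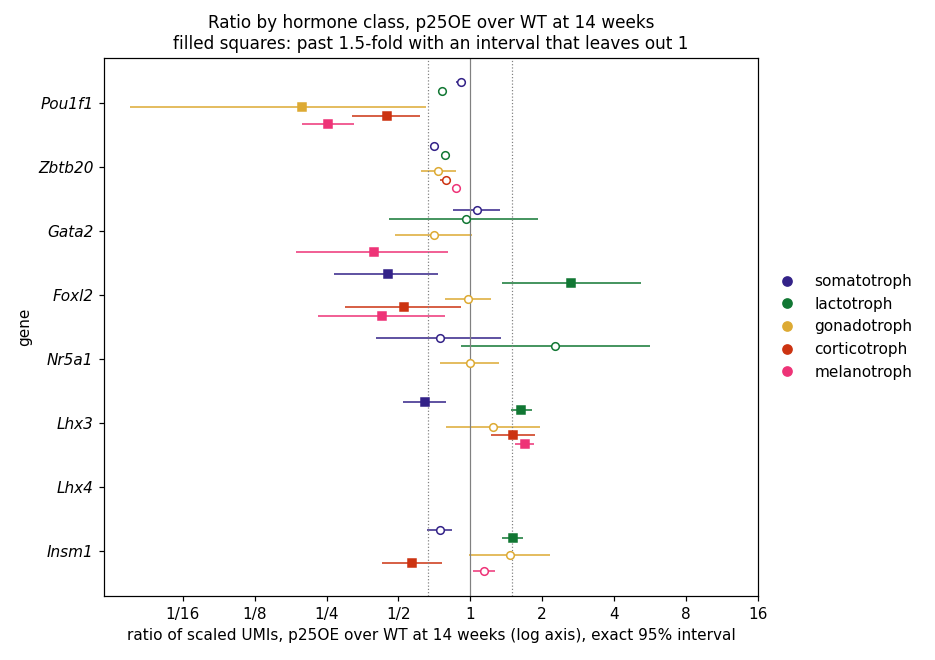
Ratio of scaled UMIs, p25OE over WT at 14 weeks (log axis), for each factor, coloured by class, with exact 95% intervals. Filled squares are past 1.5-fold with an interval that leaves out 1. Lhx3 stands at 1.64, 1.51 and 1.69 in lactotrophs, corticotrophs and melanotrophs and at 0.643 in somatotrophs.

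Lhx3 in melanotrophs was at 55.4 CPM (51.2 to 59.8) in WT and 105 CPM (100 to 110) in p25OE at 14 weeks, a ratio of 1.69 (1.54 to 1.85). The call was kept under 11 of 12 other settings and ended in cells of 5000 to 20000 UMIs, at 1.41 (1.22 to 1.64). Thinned to 1000 UMIs, 5.71% (3.94 to 7.97) of WT and 10.5% (8.98 to 12.1) of p25OE melanotrophs held a Lhx3 UMI, while unthinned the shares were 60.4% and 55.2% at medians of 17865 and 8927 UMIs. Immune-gated cells held it in 0.861% and 1.76% after thinning. At 40 weeks the melanotroph level was 40.3 CPM (34.6 to 46.7) in WT and 148 CPM (145 to 152) in p25OE, where immune-gated cells were at 34.1 CPM.

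Lhx3 in lactotrophs was at 24.4 CPM in WT and 39.4 CPM in p25OE at 14 weeks, a ratio of 1.64 (1.48 to 1.81), kept under 12 of 12 other settings with values from 1.62 to 2.15. In corticotrophs it was at 41.9 and 64.3 CPM, a ratio of 1.51 (1.22 to 1.87), kept under 8 of 12. In gonadotrophs the ratio was 1.25 (0.791 to 1.96) and was not called. In somatotrophs it was at 15.0 CPM in WT and 9.75 CPM in p25OE, a ratio of 0.643 (0.520 to 0.791), kept under 9 of 12. The immune-gated level, at 7.68 and 8.56 CPM, was close to that of p25OE somatotrophs.

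Pou1f1 was at 0.913 (0.871 to 0.958) in somatotrophs and 0.761 (0.734 to 0.789) in lactotrophs, and neither passed 1.5-fold. It was called lower in corticotrophs, at 0.446 (0.320 to 0.617), in melanotrophs, at 0.255 (0.198 to 0.326), and in gonadotrophs, at 0.196 (0.0376 to 0.654) on 3 UMIs in p25OE against 22 in WT. The gonadotroph call was kept under 8 of 11 other settings, and the corticotroph call ended in cells of 5000 to 20000 UMIs, at 0.873 (0.476 to 1.62). In WT the corticotroph level was 33.8 CPM (27.8 to 40.6), above the 19.0 CPM (14.2 to 24.9) of immune-gated cells, while the intervals of melanotrophs, at 19.3 CPM, and gonadotrophs, at 26.6 CPM, overlap it. Immune-gated cells of p25OE were at 11.2 CPM. The part of free RNA in these 3 calls was not tested. Zbtb20 was between 0.707 (0.685 to 0.730) in somatotrophs and 0.870 (0.842 to 0.899) in melanotrophs, below 1 in 5 of 5 classes under all 3 scalings, and it was called in none. In immune-gated cells it was at 167 and 117 CPM.

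In gonadotrophs Foxl2 was at 245 CPM in WT and 246 CPM in p25OE, a ratio of 0.979 (0.783 to 1.22), and Nr5a1 was at 0.999 (0.749 to 1.33). Gata2 there was at 0.704 (0.482 to 1.02). The gonadotroph ratios rest on 51 WT cells; the intervals show how large a difference these counts leave possible. Of the genes these factors are known to activate (Lhb, Fshb, Cga, Gnrhr, Nr0b1 and Fst), 0 of 5 tested were called in gonadotrophs, where Lhb and Fshb are the gate genes and their levels are set in part by the gate. In somatotrophs 3 of 5 were lower, against 6.88% of all genes, in lactotrophs 2 of 3 higher, against 9.77%, and in melanotrophs 2 of 3 lower, against 8.22%. Corticotrophs had 1 of 5 in each direction, against 7.31% higher and 4.78% lower. In the 4 classes other than gonadotrophs and thyrotrophs, Foxl2 was at 11.2 CPM or less in both libraries. It was lower in somatotrophs, at 0.452 (0.268 to 0.735) on 22 UMIs against 75, in corticotrophs, at 0.527 (0.299 to 0.910), and in melanotrophs, at 0.428 (0.229 to 0.783). It was higher in lactotrophs, at 2.64 (1.36 to 5.19) on 23 UMIs against 18. The somatotroph and corticotroph calls were each kept under 7 of 12 other settings, and the lactotroph and melanotroph calls under 10 of 12. In cells of 5000 to 20000 UMIs the somatotroph ratio was 1.11 and the melanotroph ratio 1.07. Beside the somatotroph value, Lhb was at 0.313 (0.258 to 0.377) and Cga at 0.323 (0.309 to 0.339) in the same cells. What part cells or RNA of other classes have in these Foxl2 values was not tested. Gata2 was lower in melanotrophs, at 0.395 (0.187 to 0.807), on 14 UMIs against 22, and the call ended in cells of 5000 to 20000 UMIs, at 0.586 (0.157 to 2.66).

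Insm1 went in opposite directions in 2 classes. In lactotrophs it was at 25.3 CPM in WT and 37.6 CPM in p25OE, a ratio of 1.51 (1.36 to 1.67) that sits at the threshold and was kept under 5 of 12 other settings. In corticotrophs it was at 36.2 and 21 CPM, a ratio of 0.572 (0.426 to 0.765), kept under 12 of 12. Somatotrophs, at 0.744 (0.658 to 0.839), gonadotrophs, at 1.47 (0.992 to 2.17), and melanotrophs, at 1.14 (1.03 to 1.27), were not called. Median depths differed between the libraries, at 17784 and 13602 UMIs in lactotrophs and 8318 and 6121 in corticotrophs, and the part of depth was not tested.

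**Figure D3:**
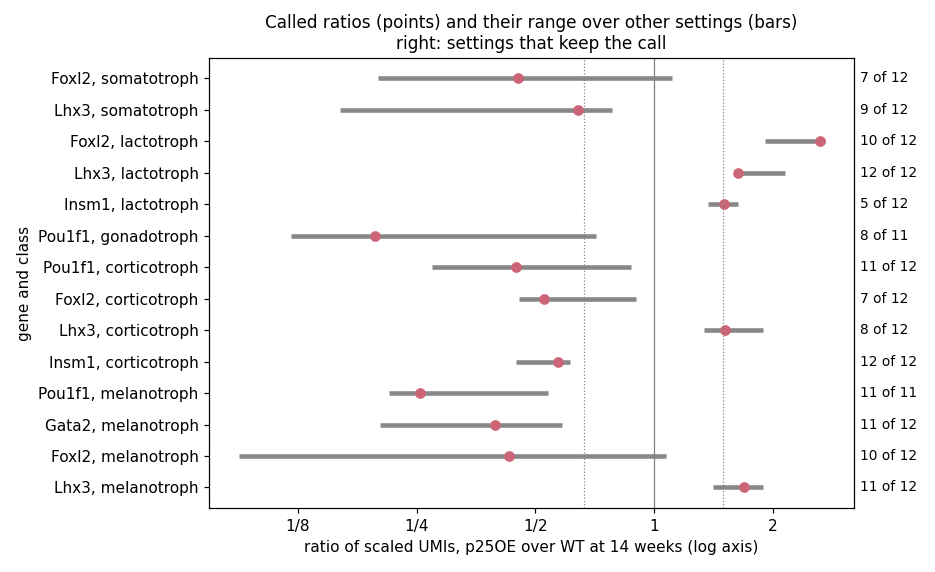
Ratios called for p25OE over WT at 14 weeks (points, log axis) and the range over the other settings (bars), with the number of settings that keep the call at the right. Lhx3 in lactotrophs and Insm1 in corticotrophs keep the call under 12 of 12 settings, and the Foxl2 bars of somatotrophs and melanotrophs cross 1.

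Genes that work with the factors were read from lists made by role. Of the 13 cofactors, such as the LIM-domain partners Ldb1 and Isl1, the Gata cofactors Zfpm1 and Zfpm2 and the repressor complex genes Kdm1a and Rcor1, 5 of 12 tested were higher and 0 lower in lactotrophs, against 9.77% and 4.47% of all genes. Melanotrophs had 4 of 12 higher and 1 lower, against 14.7% and 8.22%, and somatotrophs 0 of 12 higher and 1 lower, against 6.61% and 6.88%. Gonadotrophs had 3 of 9 higher, against 7.28%, and corticotrophs 1 of 11, against 7.31%, with 0 lower in both. Isl1, a LIM-homeodomain factor, was higher in melanotrophs, at 25.7 CPM against 9.83 CPM, a ratio of 2.33 (1.89 to 2.90), and lower in somatotrophs, at 0.478 (0.335 to 0.673). Rcor2, a corepressor gene, was higher in lactotrophs, at 3.07 (1.87 to 5.09), and in melanotrophs, at 2.46 (1.64 to 3.80).

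Of 23 other lineage factors, 2 of 17 tested were higher and 4 lower in somatotrophs, against 6.61% and 6.88% of all genes. Lactotrophs had 3 of 15 higher and 2 lower, against 9.77% and 4.47%, and gonadotrophs 2 of 13 and 1, against 7.28% and 4.56%. Corticotrophs had 0 of 14 higher and 2 lower, against 7.31% and 4.78%, and melanotrophs 1 of 16 and 4, against 14.7% and 8.22%. Pax7, the melanotroph factor, was higher in lactotrophs, at 2.51 CPM against 0.3 CPM, and in somatotrophs, at 3.87 CPM against 0.477 CPM. Melanotrophs made up 20.1% of kept cells in p25OE and 8.51% in WT at 14 weeks, and the part of their RNA in these Pax7 values was not tested. Neurod1, a basic helix-loop-helix factor, was lower in lactotrophs, at 0.413 (0.187 to 0.825), and Tcf7l2, a Wnt pathway factor, was lower in melanotrophs, at 0.417 (0.267 to 0.645). Of the genes Pou1f1 is known to activate, which include the gate genes Gh, Prl and Tshb, 0 of 4 tested were called in lactotrophs. Somatotrophs had 1 of 4 lower, Tshb at 0.662 (0.575 to 0.761), named after its value was seen. Outside the lineage of Pou1f1, gonadotrophs had 1 of 3 in each direction, corticotrophs 1 of 4 lower, and melanotrophs 1 of 4 higher and 2 lower, beside the same shares of all genes. In melanotrophs Gh was at 0.360 (0.357 to 0.362), and it went from 6624 to 12900 CPM in immune-gated cells.

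The comparison of WT at 40 with WT at 14 weeks asked how the factors differed with age in a normal gland. Of 33 pairs tested, 7 were called higher and 6 lower, and the shares of all genes called are given beside each class. Plain CPM shifts the median gene by -0.40 (log2) in somatotrophs, -0.26 in corticotrophs and -0.45 in melanotrophs for this comparison, and by 0.17 in melanotrophs for p25OE over WT at 14 weeks, so ratios are relative to the median gene. In somatotrophs 1 of 7 factors was higher and 1 lower, against 17.4% and 17.7% of all genes. Lactotrophs had 3 of 7 higher and 0 lower, against 20.5% and 18% of all genes. Gonadotrophs had 1 of 7 in each direction, against 4.88% and 12.4%. Corticotrophs had 1 of 6 in each direction, against 14.2% and 19.3%. Melanotrophs had 1 of 6 higher and 3 lower, against 14.7% and 15.5%. The median log2 ratio of the factors was -0.10, 0.59, -0.15, 0.14 and -0.36 in this order, and that of all genes tested lay between -0.24, in gonadotrophs, and 0.01.

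**Figure D4:**
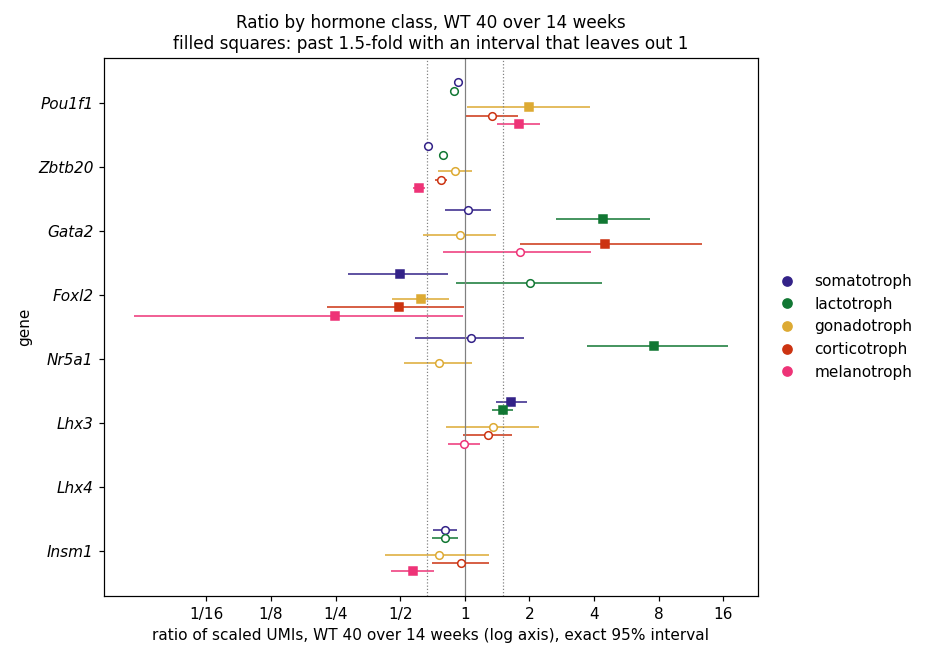
Ratio of scaled UMIs, WT at 40 over WT at 14 weeks (log axis), for each factor, coloured by class, with exact 95% intervals. Filled squares are past 1.5-fold with an interval that leaves out 1, such as Nr5a1 at 7.61 in lactotrophs and Zbtb20 at 0.611 in melanotrophs.

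Zbtb20 and Insm1 were called lower in WT melanotrophs at 40 weeks. Zbtb20 was at 532 CPM (519 to 546) at 14 weeks and 238 CPM (224 to 253) at 40 weeks, a ratio of 0.611 (0.572 to 0.652). The call ended in cells of 5000 to 20000 UMIs, at 0.759 (0.697 to 0.825), and median depths were 17865 and 6560 UMIs. It was between 0.670 and 0.898 in the other 4 classes and was called in none of them, while under plain CPM somatotrophs, at 0.509, and corticotrophs, at 0.647, passed the threshold. Lactotrophs passed it, at 0.659, only under CPM of UMIs other than hormone and mitochondrial ones. Insm1 in melanotrophs was at 48.7 and 20.5 CPM, a ratio of 0.574 (0.454 to 0.717), kept under 12 of 12 other settings. In p25OE melanotrophs at 40 weeks Zbtb20 was at 392 CPM and Insm1 at 35.9 CPM.

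Lhx3 was called higher at 40 weeks in WT somatotrophs, at 1.65 (1.39 to 1.95), and lactotrophs, at 1.5 (1.34 to 1.68). Under plain CPM these were 1.25 and 1.45, and neither was called. In melanotrophs it was at 0.993 (0.836 to 1.17). Foxl2 in gonadotrophs was at 245 CPM at 14 weeks and 148 CPM at 40 weeks, a ratio of 0.624 (0.458 to 0.839), kept under 12 of 12 other settings, while Nr5a1, at 0.757 (0.523 to 1.08), and Gata2, at 0.950 (0.638 to 1.39), were not called. Pou1f1 was at 0.888 (0.855 to 0.923) in lactotrophs and 0.933 (0.887 to 0.982) in somatotrophs.

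Factors of one lineage were higher at 40 weeks in cells of another, beside higher free RNA. In lactotrophs Gata2 went from 0.764 to 3.23 CPM, a ratio of 4.38 (2.67 to 7.31), and Nr5a1 from 0.3 to 2.20 CPM, a ratio of 7.61 (3.71 to 16.8). Lhb in the same cells went from 3.27 to 243 CPM and Cga from 52.3 to 1199 CPM. In immune-gated cells Gata2 went from 1.10 to 3.38 CPM, with a UMI in only 2 of 715 and 7 of 724 cells. For Gata2 this value is not a level of free RNA alone. Gata2 in corticotrophs was at 4.51 (1.81 to 12.7), on 19 UMIs against 7, and Pou1f1 was higher in melanotrophs, at 1.78 (1.41 to 2.25), and gonadotrophs, at 1.99 (1.03 to 3.81). The corticotroph call of Gata2 was kept under 10 of 12 other settings. The melanotroph call of Pou1f1 ended under plain CPM, at 1.31, and under CPM of UMIs other than hormone and mitochondrial ones, at 1.42, and the gonadotroph call was kept under 5 of 12 other settings, with 0.905 at gate thresholds halved. The part of free RNA in these values was not tested. Foxl2 was called lower in somatotrophs, at 0.498 (0.284 to 0.832), corticotrophs, at 0.494 (0.227 to 0.988), and melanotrophs, at 0.248 (0.0287 to 0.982), on 19, 11 and 2 UMIs at 40 weeks. These calls were kept under 6 of 11, 4 of 12 and 3 of 11 other settings, and the somatotroph ratio was 2.36 in cells of 5000 to 20000 UMIs.

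In the lists, cofactors were lower at 40 weeks in WT for 5 of 12 tested in somatotrophs, against 17.7% of all genes, and for 5 of 12 in lactotrophs, against 18%. They were lower for 1 of 8 in gonadotrophs, against 12.4%, 6 of 10 in corticotrophs, against 19.3%, and 4 of 12 in melanotrophs, against 15.5%. They were higher for 2, 3, 0, 0 and 0 in this order, against 17.4%, 20.5%, 4.88%, 14.2% and 14.7%. Rcor1 was at 0.171 (0.0888 to 0.304) and Zfpm2 at 0.231 (0.139 to 0.366) in corticotrophs, and Kdm1a at 0.25 (0.208 to 0.299) in lactotrophs. Of the other lineage factors, 4 of 16 tested were higher and 1 lower in somatotrophs, 1 of 15 each way in lactotrophs, 0 of 13 and 5 in gonadotrophs, 1 of 14 and 4 in corticotrophs, and 1 of 15 and 5 in melanotrophs, beside these same shares of all genes in each class. Nr0b1 (Dax1), an orphan nuclear receptor of gonadotrophs, was lower in gonadotrophs, at 0.340 (0.169 to 0.629). Tcf7l2 was lower in corticotrophs, at 0.415 (0.266 to 0.628). The genes Pou1f1 activates were higher for 2 of 4 tested in somatotrophs, 3 of 3 in gonadotrophs and 3 of 4 in each other class, with 0 lower, beside the same shares. They include the gate genes Gh and Prl, whose levels in somatotrophs and lactotrophs are set in part by the gate. Tshb in melanotrophs was at 49.7 (36.7 to 68.8), while immune-gated cells went from 8.78 to 191 CPM. The genes that Nr5a1, Gata2 or Foxl2 activate were higher for 2 of 4 tested in somatotrophs, 4 of 4 in lactotrophs, 2 of 3 in corticotrophs and 4 of 4 in melanotrophs, with 0 lower. Gonadotrophs had 1 of 5 higher and 3 lower, a count that includes the gate genes Lhb and Fshb, whose levels there are set in part by the gate. The part of free RNA in these counts was not tested.

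Likeness to other genes was measured as Pearson's r of log2(CPM + 1) over 24 sums of cells by class and library. The sums came from the libraries other than p25OE at 40 weeks, for classes with at least 50 cells. Stem, immune-gated and endothelial-gated cells are among them, beside the hormone classes. How far r reflects the contrast of hormone cells with these other cells was not tested. The sums also share library depth and free RNA, so r is a description. Of 13475 genes, those most like Pou1f1 were B3gnt9 (r = 0.90), Col1a2 (0.89) and Mroh7 (0.88), and those most like Zbtb20 were Ilf2 (0.93), Tulp3 (0.92) and Thra (0.91). Gata2 was most like Foxl2 (0.90), Uxs1 (0.87) and Cga (0.85), and Foxl2 was most like Gata2 (0.90), Bean1 (0.86) and Uxs1 (0.86). For Nr5a1 they were Lama1 (0.95), Nhlh2 (0.94) and Slurp2 (0.94), for Lhx3 Dmrta2 (0.93) and Ocln (0.90), and for Insm1 Gdap1 (0.95), Fam222a (0.94) and Zfp536 (0.94). Lhx4 had 53 UMIs in these sums, and its nearest genes, Adcy8 (0.94), Nr0b1 (0.93) and Ankrd55 (0.92), rest on these few.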

How the data were processed

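Single-cell RNA libraries of 4 pituitary samples, 1 per genotype and age, were analysed from the deposited matrices of whole-number UMI counts per gene and barcode. The submitters' processing notes name Cell Ranger 3.0.2 and the build mm10; the matrix headers carry version 3.0.1. Steps before the deposited counts, including the filter on barcodes, are not given in the sources used here. Barcode and feature files served as names.

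The 8 factors and the gene lists were chosen with earlier results of these data known. Cells were gated on the share of their UMIs: Gh or Prl at least 20%, Tshb 0.25%, Lhb and Fshb 0.3%, and Pomc 4% with at least 1500 UMIs, divided by Pcsk2, Pax7 and Oacyl into melanotrophs (at least 0.05%) and corticotrophs (under 0.03%). Immune cells needed 0.3% of 8 markers. Cells passing more than 1 hormone or non-stem gate were left out as likely doublets, and no doublet caller was run. The markers were fixed beforehand, but the thresholds were set after seeing the data, with levels of the factors in view, and 3 versions were looked at. The first had Pomc at 3%. The second raised it and left out hormone cells with stem cell markers at 0.1% or more, which put WT gonadotrophs at 14 weeks at 47 cells, just under the minimum of 50. The third, used here, let the hormone gate prevail and gave 51. This last change was made because of that count, and both earlier forms are among the alternatives.

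UMIs were summed by library and class. Levels are CPM with exact Poisson intervals. Ratios use median-of-ratios size factors over genes that reach 20 UMIs in each of the first 3 libraries, with exact intervals for 2 Poisson counts. All intervals are at 95% and cover counting error only. Shares come from cells thinned to 1000 UMIs, leaving out shallower ones (up to 18 in a class and library), with exact binomial intervals. Named genes are the 8 factors, their 3 most alike genes, and from each list up to 3 genes per comparison with the largest ratio among genes with at least 50 UMIs. Some genes that this rule names are not reported here. Foxl2 in endothelial cells and the genes given beside a factor (such as Lhb, Cga and Prl) were chosen after their values were seen. The ratio and interval code was tested on simulated data. Alternatives required 10 cells rather than 50, so that gonadotrophs stayed in. Python 3.11.15, numpy 2.4.6, pandas 2.3.3 and scipy 1.17.1 were used.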

Additional observations from a re-analysis of the deposited data

Results flagged for a closer look

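At 14 weeks, 3 factors were called higher in p25OE in at least 1 class and lower in another. Whether the classes differ in their response was not tested, since each group is 1 library. Lhx3 was at 0.643 in somatotrophs and at 1.64, 1.51 and 1.69 in lactotrophs, corticotrophs and melanotrophs. Its thinned share in somatotrophs was 1.33% in WT and 1.36% in p25OE. Insm1 was at 1.51 in lactotrophs and 0.572 in corticotrophs, while the intervals of its thinned shares overlap between the libraries in both classes. Foxl2 was at 0.452 in somatotrophs, 0.527 in corticotrophs and 0.428 in melanotrophs and at 2.64 in lactotrophs, on 18 to 75 UMIs a library.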

How the results depend on the processing

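Ratios were recomputed under 9 planned settings and 3 added after seeing the data (cells of 5000 to 20000 UMIs and both earlier forms of the gate), and the counts also among pairs with at least 100 UMIs. Subtracting the immune-gated level gave no ratio where a level lay at or below it. For p25OE over WT at 14 weeks, the 5 pairs called higher became 2 in cells of 5000 to 20000 UMIs and 3 with Pomc at 3%, and the 9 called lower became 3 in cells of 5000 to 20000 UMIs and 4 among pairs with at least 100 UMIs. For WT at 40 over 14 weeks, the 7 called higher became 3 under plain CPM, 4 under CPM of UMIs other than hormone and mitochondrial ones, 2 with the immune-gated level subtracted and 3 among pairs with at least 100 UMIs. The 6 called lower became 10 under CPM of UMIs other than hormone and mitochondrial ones, and 3 each with gate thresholds halved, with the mean of per-cell CPM, in cells of 5000 to 20000 UMIs and among pairs with at least 100 UMIs. The counts at 100 UMIs keep the main calls and only leave out pairs with fewer UMIs. Of all genes at that minimum, 3.63% to 7.31% by class were called lower for p25OE over WT at 14 weeks. For WT at 40 over 14 weeks, 11.9% to 18.2% were called higher and 17.8% to 22.6% lower. The numbers of pairs tested under the other settings are not given here. Of single ratios, 667 stayed within the counting interval, 98 left it and 5 changed side. A change of side was counted only for ratios called in the main setting. Foxl2 in somatotrophs at 14 weeks became 1.08 with thresholds halved and 1.11 in cells of 5000 to 20000 UMIs, where Foxl2 in melanotrophs became 1.07 and Foxl2 in WT somatotrophs with age 2.36. Pou1f1 in WT gonadotrophs with age became 0.905 with thresholds halved. The cause was not tested. With stem marker cells left out, Lhx3 in somatotrophs at 14 weeks was at 0.680 and was no longer called. The class with the highest level was the same in 22 of 24 factor and library pairs under CPM of UMIs other than hormone and mitochondrial ones and in 16 by thinned share. The pairs that changed by thinned share include Lhx4 in every library compared. In WT at 14 weeks its thinned share was 0 in all 6 hormone classes, so no class was highest. In p25OE at 14 weeks and WT at 40 weeks its highest share rests on 1 melanotroph. No paired analysis was possible because each group is 1 library. Cells of 1 library share their gland, depth and free RNA, and factors at a few UMIs per class, Lhx4 above all, cannot be compared at this depth.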

Other observations

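Foxl2 was also counted in 61 endothelial-gated cells of p25OE at 14 weeks, at 103 CPM (66.5 to 152) on 25 UMIs in 15 of the cells, above the 0.988 CPM of immune-gated cells of that library. The WT library at 14 weeks held 4 such cells, with 4 Foxl2 UMIs, all in 1 cell, so the libraries cannot be compared. No Nr5a1 UMI was counted in the p25OE cells, which allows up to 15.2 CPM.

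In p25OE melanotrophs at 40 weeks Foxl2 was at 4.43 CPM (3.82 to 5.11) on 188 UMIs in 4504 cells, and no Foxl2 UMI was counted in the 187 immune-gated cells of that library, which allows up to 5.03 CPM, so the melanotroph level was not detectably above that of immune-gated cells. WT melanotrophs at 40 weeks were at 0.455 CPM (0.0551 to 1.64) on 2 UMIs. Thinned to 1000 UMIs, 0.555% (0.360 to 0.818) of these p25OE melanotrophs held a Foxl2 UMI, and unthinned 3.26%.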
